A study of Equus caballus with 9 samples.

Results

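Tenocytes made from horse embryonic stem cells (ESCs) were compared with tenocytes taken from late fetal horses, gene by gene, over all genes that 6 RNA sequencing libraries measured well enough to test. The ESC-derived group consisted of 3 lines, labelled ES_IG_diff, ES_HJ_diff and ES_PW_diff (replicates 1, 2 and 3), at passages 22, 18 and 18. The fetal group consisted of 3 lines labelled by gestation day, 319, 320 and 321 (replicates 1, 2 and 3), at passages 6, 3 and 7. The ESC-derived cells had been kept as stem cells on inactivated mouse embryonic fibroblasts with leukaemia inhibitory factor, and were then grown without either for 14 days with 20 ng/ml TGF-β3 and 15% serum, whereas the fetal cells grew in a high-glucose medium with 10% serum. Origin, passage number, medium, serum, TGF-β3 and contact with feeder cells therefore differ together between the groups and cannot be told apart. The series also holds 3 adult lines, from horses of 2 to 6 years, at passages 5, 6 and 4 (replicates 1, 2 and 3). They were not used to choose or test genes and are shown only as a further set of levels. Their passages are near the fetal ones, so origin and passage cannot be told apart in a likeness of adult to fetal lines. Of 21689 Ensembl gene identifiers in the table, 13174 passed the filter on low counts in the 6 libraries and make up the comparison.

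Tenocytes are the fibroblast-like cells that build and maintain tendon, a tissue of parallel collagen fibres with proteoglycans and glycoproteins between them. TGF-β ligands act through a pair of receptor kinases and SMAD proteins, take part in tendon formation in the embryo, and are used to drive stem cells toward a tendon fate. The deposited table gives Ensembl identifiers without gene names and no identifier could be matched to a symbol, so genes are described here by their level, direction and spread. For the same reason the tenocyte label of the cultures could not be checked against tenocyte, pluripotency or other cell type markers. The RNA came from whole cultures, so fewer cells of a kind and less RNA of a gene per cell cannot be told apart.

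The ESC-derived libraries held 20292588 to 22569445 counts and the fetal ones 20166692 to 23436766, and 12403 to 12693 and 12468 to 12555 genes had at least 10 counts (n = 3 each). Taking the 1000 genes with most counts in each library, their share of counts was 59.6% ± 1.91 in ESC-derived and 68.4% ± 2.17 in fetal cultures (SD, n = 3 each). The ranges of this share did not overlap (exact permutation test, two-sided, p = 0.1, the smallest that 3 against 3 allows, and 0.175 adjusted by Benjamini-Hochberg for 7 measures).

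The ESC-derived and fetal cultures differed across much of the transcriptome, and about as many genes were higher as lower. A gene was called when its edgeR adjusted p was under 0.05, and 7614 of 13174 genes (57.8%) were called, 3866 higher and 3748 lower in ESC-derived cultures. The median log2 fold change, ESC-derived minus fetal, was 1.65 in the genes called higher and -1.71 in those called lower, also with genes that had no count in a group set at a floor of 3 counts over that group. Over all tested genes the median was -0.00 and the median absolute value 0.87. The even balance rests on TMM scaling, which sets the bulk of genes near 0. Scaling by total counts alone moved the median log2 fold change of all tested genes to 0.26 and the calls to 4631 higher and 2832 lower, from 50.8% to 62.1% of calls being higher.

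**Figure D1:**
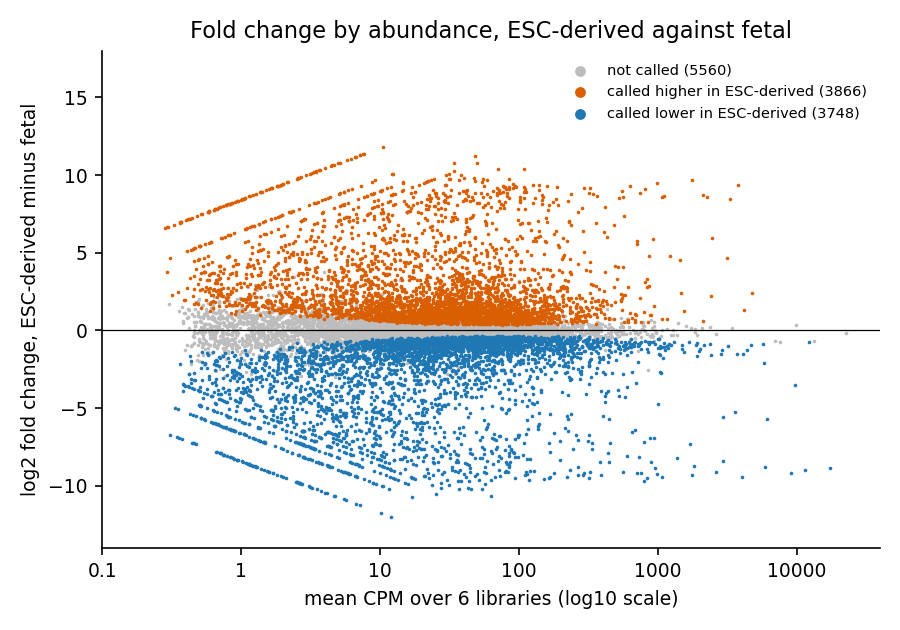
Log2 fold change (ESC-derived minus fetal, vertical axis) against mean CPM, counts scaled to a common library size, over the 6 libraries (horizontal axis, log scale) for the 13174 tested genes, each a point coloured by its call. The 3866 and 3748 called genes lie on both sides of 0 at every level, and diagonal rows at the left edges are genes with 0 or a few counts in a group, whose fitted fold depends on a prior count.

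Differences were found at every level of expression, taken as the mean CPM over the 6 libraries. In the band of 10 to 100 CPM, which held 7282 genes, 57.3% were called, 2260 higher and 1915 lower in ESC-derived cultures. Of the 3457 genes at 1 to 10 CPM, 886 were higher and 1030 lower. At 100 to 1000 CPM 64.3% of 1646 genes were called, 512 higher and 547 lower. The directions were least balanced among the 100 genes above 1000 CPM: 77 were called, 19 higher and 58 lower, and the median log2 fold change of these 100 genes was -0.86. That band leaned the same way with RLE scaling, at 18 higher and 58 lower, and with total counts alone, at 22 higher and 49 lower. In the 3 bands from 1 to 1000 CPM total counts alone gave more higher than lower calls, 1049 and 888, 2728 and 1305, and 621 and 402. Below 1 CPM 189 genes were called higher and 198 lower, and with total counts alone 211 higher and 188 lower.

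**Figure D2:**
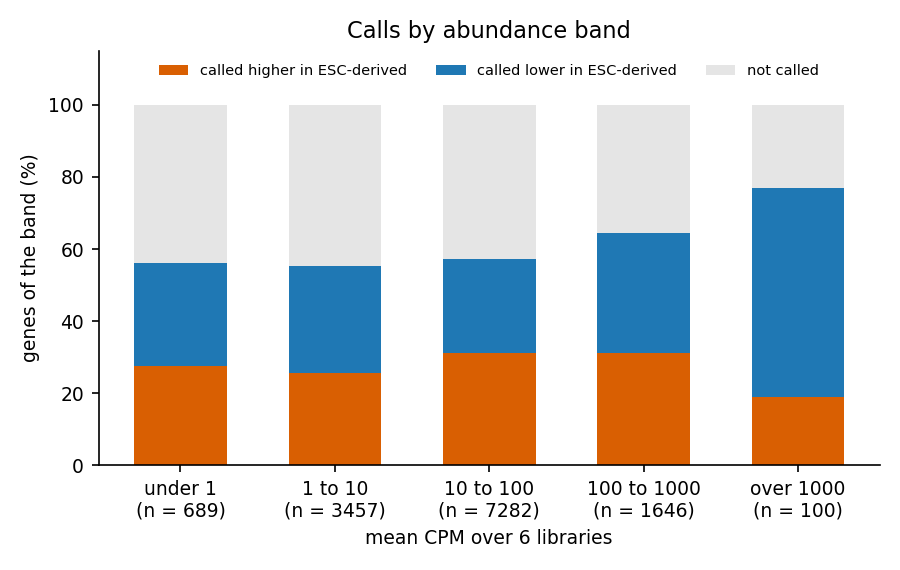
Percentage of tested genes called higher, called lower and not called in ESC-derived against fetal cultures (vertical axis), in bands of mean CPM over the 6 libraries (horizontal axis, with the number of genes in each band). The called share runs from 55.4% at 1 to 10 CPM to 77.0% above 1000 CPM, where 58 of 77 calls are lower in ESC-derived cultures.

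The abundant genes were also counted from the side of each culture. A cut on the level in a group favours genes that are higher there, so an excess of calls toward that group is partly set by the choice. The median log2 fold change toward the group of the cut was 1.17 for fetal and 0.52 for ESC-derived cultures. In fetal cultures 120 tested genes had a mean of at least 1000 CPM, of which 87 were called higher in fetal, 3 lower, and 30 were not called. In ESC-derived cultures 87 genes reached that level, of which 43 were called higher in ESC-derived, 20 lower, and 24 were not called. Of the 120 genes, 32 were called and at least 16-fold higher in fetal than in ESC-derived cultures, with fetal means of 1095 to 34820 CPM. These 32 genes held 17.3%, 16.3% and 13.2% of all counts in fetal replicates 1, 2 and 3, and 0.141%, 0.115% and 0.0794% in ESC-derived replicates 1, 2 and 3. Of the 87 genes, 24 were at least 16-fold higher in ESC-derived cultures, at 1048 to 7540 CPM there. They held 7.37%, 8.08% and 5.71% of counts in ESC-derived replicates 1, 2 and 3 and 0.0494%, 0.0711% and 0.110% in the fetal ones. The genes of both sets were picked by the contrast, so these shares describe its size and test nothing. The adult libraries took no part in the choice: in them the 32 genes held 12.6% to 19.8% of counts and the 24 genes 0.0306% to 0.0654%.

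Many differences were large compared with the spread between lines. Of the called genes, 2880 were higher and 2670 lower by at least 2-fold, and 1613 and 1701 by at least 4-fold. With genes that lack counts in a group placed at their floor, 835 were higher and 1029 lower by at least 16-fold, and 458 and 596 by at least 64-fold. The 3 ESC-derived libraries lay entirely above the 3 fetal ones for 4474 genes and entirely below for 4441, together 8915 genes or 67.7% of those tested, of which 1361 were not called. Conversely, 60 called genes overlapped. Between the nearest libraries of the groups, the gap was at least 4-fold for 1087 higher and 1219 lower genes, and at least 16-fold for 499 and 591, on log2 CPM with a prior count of 2. When edgeR tested for changes beyond 2-fold, 3935 genes (29.9%) were called, 1987 higher and 1948 lower.

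The genes that were not called fall into those shown to be close and those left uncertain. The 95% interval of the log2 fold change lay wholly within 2-fold in either direction for 3763 genes, 28.6% of those tested. It lay wholly beyond 2-fold for 3672 genes (27.9%) and crossed a 2-fold limit for the other 5739 (43.6%). Among the 3763 genes held within 2-fold, 545 were nevertheless called, so their difference was detectable but small. Of the 5560 genes not called, 3218 were held within 2-fold and 2342 were not, so for the latter a 2-fold change cannot be set aside at 3 lines a group. Precision depended on the level: 0.435% of genes below 1 CPM and 11.1% at 1 to 10 CPM were held within 2-fold, against 37.8% at 10 to 100 CPM and 36.9% at 100 to 1000 CPM. The median standard error of the log2 fold change was 0.68, 0.43, 0.21 and 0.20 in the same order. Above 1000 CPM, where the standard error was 0.26, 18.0% were held within 2-fold and 37.0% were beyond it.

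The 2 genes with the highest and the 2 with the lowest fitted fold change, among called genes without overlap and with at least 10 CPM in the higher group, were each at 0 counts in all 3 libraries of the other group. A fitted fold change against 0 counts depends on the prior count, so this order is one of fitted values, and genes with some counts in the lower group can have a larger measured ratio than the bounds given here. ENSECAG00000008363 was at 21.6, 30.0 and 11.2 CPM in ESC-derived replicates 1, 2 and 3 and at 0 in every fetal library. Its mean of 20.9 ± 9.43 CPM (SD, n = 3) was at least 410-fold above the fetal level, taking a floor of 3 counts over the fetal group (log2 fold change 11.83 ± 0.91, SE, edgeR adjusted p = 0.000320). The exact 95% counting limit on that fold was lower, at 333. It was also at 0 in the 3 adult libraries. ENSECAG00000028130 was at 26.7, 17.0 and 1.89 CPM in ESC-derived replicates 1, 2 and 3 and at 0 in the fetal ones. Its lines therefore differed widely around a mean of 15.2 ± 12.5 CPM (SD, n = 3), at least 302-fold above fetal with an exact 95% counting limit of 245 (log2 fold change 11.37 ± 1.91, SE, edgeR adjusted p = 0.00518). Its counts are fractional, as Salmon can give where reads match transcripts of more than 1 gene, so a near-identical copy may share them.

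ENSECAG00000029663 was at 0 in all 3 ESC-derived libraries and at 29.9, 24.2 and 17.4 CPM in fetal replicates 1, 2 and 3. The fetal lines were close to each other, at 23.8 ± 6.30 CPM (SD, n = 3), at least 562-fold above ESC-derived with an exact 95% counting limit of 457 (log2 fold change -12.01 ± 0.61, SE, edgeR adjusted p = 8.05e-05). Its counts are fractional too. The adult lines, at 18.7 to 25.9 CPM on a scaling of all 9 libraries, lay within the fetal range. ENSECAG00000020812 was at 0 in the ESC-derived libraries and at 15.9, 30.0 and 14.5 CPM in the fetal ones, with a mean of 20.1 ± 8.57 CPM (SD, n = 3). That was at least 474-fold higher in fetal with an exact 95% counting limit of 385 (log2 fold change -11.77 ± 0.78, SE, edgeR adjusted p = 0.000198). Adult lines held it at 5.63 to 20.7 CPM. Leaving out 1 library moved some of these bounds by over 1.5 times. Without fetal replicate 3 the first became 267, without ESC-derived replicate 1 or fetal replicate 3 the second became 185 or 196, and without ESC-derived replicate 1 the others became 368 and 310. Except for the value of 185, the omitted library had no count of that gene, and the floor of 3 counts was spread over fewer reads. These bounds and counting limits cover counting error only, whereas the standard errors include the spread between lines. At 0 counts in a group the standard errors also depend on the prior count, as the fitted fold change does, and set no limit on the fold.

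**Figure D3:**
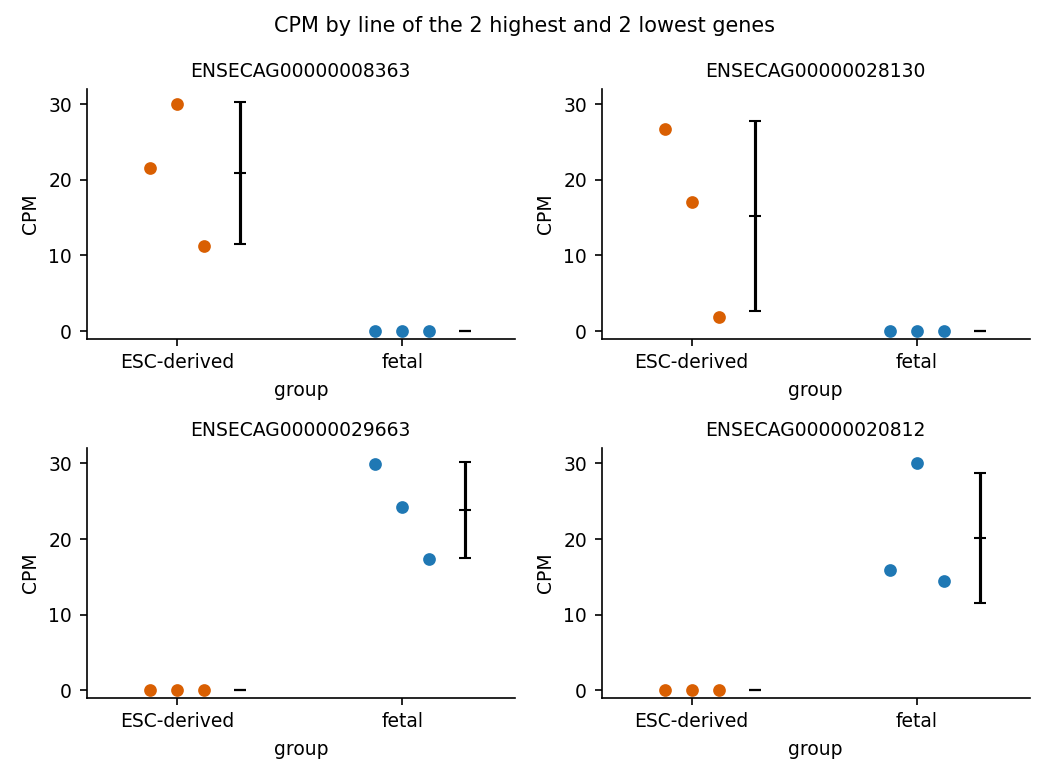
CPM (vertical axis) of the 4 genes by group (horizontal axis), with a point per line in the order of replicates 1 to 3 and the mean ± SD (n = 3) beside them. The upper 2 genes reach 30.0 and 26.7 CPM in ESC-derived lines and lie at 0 in fetal ones, and the lower 2 reach 29.9 and 30.0 CPM in fetal lines and lie at 0 in ESC-derived ones.

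Abundant genes picked as at least 64-fold apart kept a remainder in the other group, given here as a percentage of the level where they were high. Among called genes at least 64-fold apart, those above 1000 CPM in fetal cultures (27 genes) kept a median of 0.217% of that level in ESC-derived cultures (lower to upper quartile 0.174% to 0.362%). The 15 genes above 1000 CPM in ESC-derived cultures kept 0.238% in fetal ones (0.170% to 0.261%). At 100 to 1000 CPM the medians were 0.364% over 106 genes and 0.303% over 111 genes, and at 10 to 100 CPM they were 0.347% over 266 and 0.333% over 232 genes. The choice of at least 64-fold puts an upper limit on these percentages and no lower one. That limit is the same in every band, so the likeness of the percentages across bands is partly set by the choice. None of these genes above 1000 CPM was left below 0.122% in ESC-derived or 0.121% in fetal cultures, and 0 of these genes above 100 CPM had no count in the other group. For the genes above 1000 CPM in ESC-derived cultures the median remainder was 0.288%, 0.277% and 0.0925% in fetal replicates 1, 2 and 3. For those above 1000 CPM in fetal cultures it was 0.247%, 0.275% and 0.153% in ESC-derived replicates 1, 2 and 3. The median remainder of these genes thus differed between libraries, and was lowest in replicate 3 of each group. By summed counts the order could differ: the 24 genes at least 16-fold higher in ESC-derived cultures, given above, held their largest fetal share, 0.110%, in replicate 3. Reads assigned to the wrong library would leave a remainder of this kind, would make the folds of abundant genes smaller than they are in the cells, and would raise such genes above a limit of a few counts. Their part in these values was not tested, so the folds of abundant genes are ratios as measured.

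A set of genes was present in one kind of tenocyte and near the floor in the other, defined as at least 50 counts in every library of a group and at most 3 in every library of the opposite group. Of these, 167 were present in ESC-derived and 221 in fetal cultures. All of them were also called, which these limits make likely, so the calls are no further evidence. Their levels ran from 2.28 to 98.8 CPM (median 12.3) in ESC-derived and from 2.92 to 126 CPM (median 10.8) in fetal cultures. Because abundant genes kept a remainder above 3 counts, as given above, the limits leave out abundant genes and the sets hold few above 100 CPM (0 and 1). Lines of a group could differ: the highest ESC-derived line was a median of 1.79-fold above the lowest for the 167 genes, and the highest fetal line 1.90-fold above the lowest for the 221. For 25 and 20 of them the lines were at least 4-fold apart. In the adult libraries, which these limits did not use, 141 of the 167 ESC-derived genes were at 3 counts or fewer in each library, 0 were at 50 or more in each, and 26 lay between. Of the 221 fetal genes, 173 were at 50 counts or more in each adult library, 0 were at 3 or fewer in each, and 48 lay between.

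The median spread between lines of a group was about equal in both kinds of culture. Genes at least 16-fold apart were more numerous between ESC-derived than between fetal lines, as given below. Over all tested genes the median SD of log2 CPM between the 3 lines was 0.26 in ESC-derived and 0.28 in fetal cultures, and the ESC-derived SD was the larger for 46.4% of genes. The common biological coefficient of variation, fitted by edgeR in each group alone, was 0.315 and 0.301. Genes called higher in ESC-derived cultures had a median SD of 0.26 there and 0.32 in the fetal group, whereas genes called lower had 0.28 in each.

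Pairs of libraries show the same contrast between and within groups. In the 9 pairs of an ESC-derived with a fetal line, 3283 to 3778 genes (24.9% to 28.7%) were at least 4-fold apart. The number was 253 to 537 in the 3 pairs of ESC-derived lines and 171 to 464 in the 3 pairs of fetal lines. At 16-fold it was 1613 to 1799 between groups, 41 to 66 between ESC-derived lines and 13 to 31 between fetal lines. The ESC-derived lines farthest apart, with 537 genes, were replicates 2 and 3, which share passage 18. Replicate 1, at passage 22, stood 253 and 326 genes from them. The fetal lines farthest apart, with 464 genes, were replicates 1 and 3, at passages 6 and 7, and replicate 2, at passage 3, stood 171 and 263 genes from them. With 3 lines a group, passage was not tested.

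**Figure D4:**
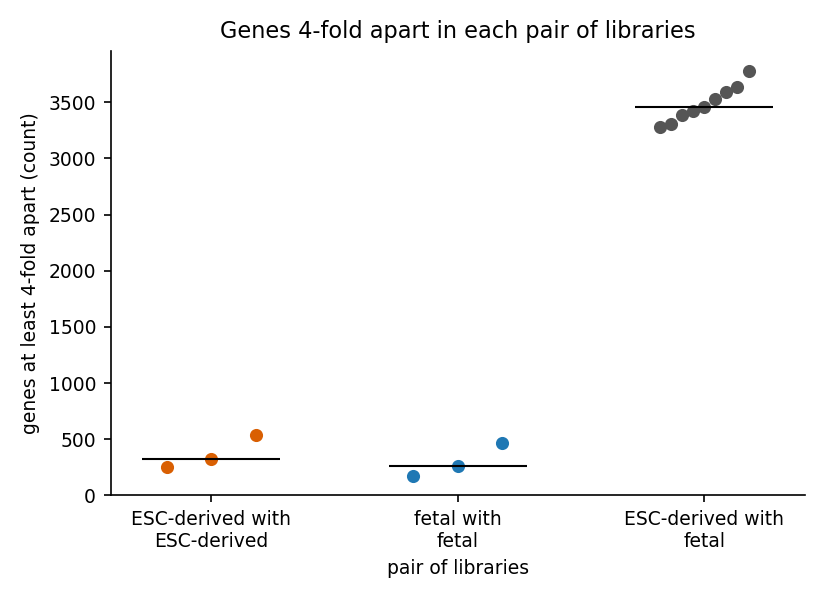
Number of tested genes at least 4-fold apart on log2 CPM (vertical axis) in each pair of libraries, for pairs within ESC-derived, within fetal and between the groups (horizontal axis), with a point per pair and a line at the median. The 9 pairs between groups lie at 3283 to 3778 genes and the 6 pairs within groups at 171 to 537.

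Each line was also set against the mean of the opposite group. The genes were called from these same libraries, so close values over the 3 lines are partly fixed by the calls and test nothing. Over the genes called higher, the median log2 difference from the fetal mean was 1.64, 1.56 and 1.73 in ESC-derived replicates 1, 2 and 3, and over those called lower it was -1.64, -1.68 and -1.71. Each ESC-derived line lay above every fetal line for 3849 to 3862 of the 3866 higher genes and below every one for 3737 to 3741 of the 3748 lower genes. With 1 library left out of the fit at a time, 6348 to 7323 genes were called. The lines did not contribute evenly to the upper end. Replicate 3 was the highest ESC-derived line for 42.6% of the higher genes, replicate 2 for 35.4% and replicate 1 for 22.0%. For the lower genes the order of ESC-derived lines differed, at 30.4%, 39.8% and 29.7% in replicates 1, 2 and 3. Among fetal lines, replicate 1 was the highest for 48.1% of the genes called lower in ESC-derived cultures, replicate 2 for 26.7% and replicate 3 for 25.2%. For the genes called higher these fetal shares were 38.6%, 24.8% and 36.6%. Shares over all tested genes were not taken, so these values are not shown to be particular to called genes. Some genes set a single line apart within its group by at least 4-fold: 142 genes were that much below both other ESC-derived lines in replicate 3, 83 in replicate 2 and 21 in replicate 1. Upward the numbers were 39, 54 and 49. Between fetal lines the largest such numbers were 74 genes lower and 63 higher in replicate 3.

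Some large changes were left without a call. There were 68 genes with a fold change of at least 4 that were not called, 34 in each direction, at a median of 2.54 CPM. In some of these, 1 library stood at least 4-fold above both other lines of its group. ESC-derived replicates 1, 2 and 3 stood so for 6, 9 and 8 genes, and fetal replicates 1, 2 and 3 for 4, 4 and 9. A gene can count once in each group. Among the 7614 called genes, a far larger set than these 68, the numbers were 29, 28 and 22 for ESC-derived and 25, 3 and 34 for fetal replicates. As shares of their set these are smaller. Such genes numbered 49, 54 and 39 in all for ESC-derived and 38, 11 and 63 for fetal replicates. The parts of low level and of spread between lines in the missing calls were not tested.

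The called genes divided the counts of each library in opposite ways, and the adult libraries, which the calls did not use, lay at the fetal level. Genes called higher held 43.0% to 44.0% of counts in the ESC-derived, 8.94% to 10.7% in the fetal libraries and 8.52% to 11.7% in the adult ones. Genes called lower held 19.02% ± 0.0270 in the ESC-derived libraries (SD, n = 3), 53.9% to 59.7% in the fetal and 54.8% to 60.3% in the adult ones. Genes not called held 36.9% to 37.9%, 31.3% to 35.4% and 31.0% to 33.4%. The median level of the genes called higher was 36.7 CPM in ESC-derived cultures, with 9.24 in fetal and 9.44 in adult ones, and that of the genes called lower was 7.68, 31.7 and 31.9 CPM, on a scaling of all 9 libraries. All 3 adult libraries lay nearer the fetal than the ESC-derived mean of log2 CPM for 3126 (80.9%) of the genes called higher and 3216 (85.8%) of those called lower. All 3 lay nearer the ESC-derived mean for 12 and 17 genes, and they were divided for 728 and 515. The fetal and ESC-derived means used here also chose the genes, so these counts are a description without a test.

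**Figure D5:**
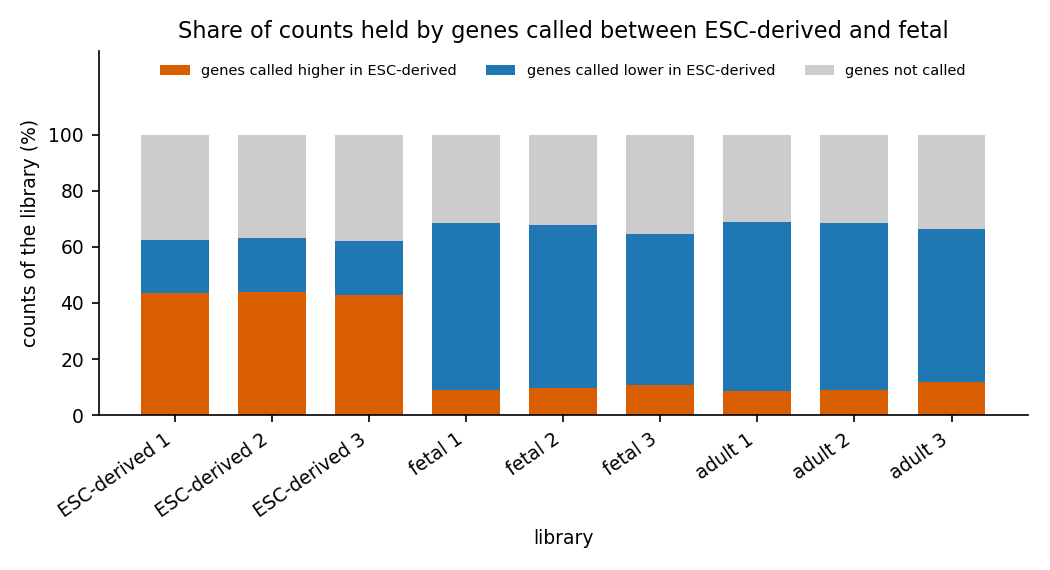
Percentage of each library's counts (vertical axis) held by genes called higher, called lower and not called between ESC-derived and fetal cultures, for the 9 libraries (horizontal axis), the adult ones included for reference. Genes called higher hold 43.0% to 44.0% in the ESC-derived libraries, against 8.52% to 11.7% in the fetal and adult ones.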

How the data were processed

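The authors deposited estimated counts, 1 row per gene, some with decimals. FastQC, Salmon and R 3.5.2 are named in the submitters' processing notes; the genome build, annotation and Salmon settings were not given in the sources used here. The members of the comparison and the lists were chosen with earlier results of these data known. Counts of the 6 libraries were rounded and tested with edgeR 4.0.16 (filterByExpr, TMM, glmQLFit, glmQLFTest) in R 4.3.3, with Benjamini-Hochberg adjustment over the 13174 genes tested. Of the 21689 identifiers, 4323 had no count in these libraries and 3708 a fractional one. The quasi-likelihood F statistic gave standard errors and 95% intervals. Levels are CPM with TMM scaling, or log2 CPM with a prior count of 2.

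The RefSeq gene table has 39335 rows, of which 0 carry an Ensembl identifier, so 0 of the 30 gene lists were run. Named genes were the 2 highest and 2 lowest by fitted fold change among called genes without overlap and at 10 CPM or more in the higher group. The series description names independent lines, whose numbers pair nothing; chi-square per degree of freedom between libraries of a group was 62.0 to 155. The fit was tested on simulated data with 200 of 13174 genes changed. It found 16.7% of genes changed 2-fold, 67.1% changed 4-fold and 95.3% changed 8-fold, and made 8 false calls. In the data 57.8% of genes were called, and so large a share makes the Benjamini-Hochberg threshold less strict. The simulated recovery therefore does not give the share of changes missed in this comparison. Alternatives used RLE scaling, total counts, DESeq2 1.42.0, limma 3.58.1 with voom, other filters, a test beyond 2-fold, all 9 libraries, thinning, no fractional genes, and each library left out. These standard errors and intervals of log2 fold changes include the spread between lines. For genes with 0 counts in a group they also depend on the prior count. Floors and exact counting limits cover counting error only, and PCR copies were not marked.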

Additional observations from a re-analysis of the deposited data

How the results depend on the processing

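The number of calls, 7614, stayed within 1.5 times under 15 of 16 alternatives, at 5833 to 8081 genes, and 0 shared calls changed direction. The exception was the test for changes beyond 2-fold, which asks for more and gave 3935. These totals come from 10154 to 17366 tested genes, and a like total does not mean the same genes. With total counts alone 7463 genes were called, of which 6698 were among the 7614. DESeq2 called 8081 and limma with voom 7757. Leaving out 1 library gave 6348 to 7323 calls, of which 6166 to 6801 were among the 7614, and 2939 to 3440 genes held within 2-fold without an ESC-derived library and 3029 to 3534 without a fetal one, against 3763. Slightly more calls were lower than higher with RLE scaling (3823 against 3815), DESeq2 (4049 against 4032) and all 9 libraries in the fit (4030 against 3750). Genes present in fetal cultures only fell from 221 to 140 when 100 counts were asked for in place of 50, which the stricter limit brings about. The named genes kept their direction and call under the alternatives that tested them; the genes with fractional counts, ENSECAG00000028130 and ENSECAG00000029663, do not enter the fit limited to whole counts, and ENSECAG00000028130 was not in the one with a stricter filter. No paired analysis was possible because the labels give the lines no shared numbers. Few genes below 10 CPM were held within 2-fold; their fold changes were also larger, and the part of depth was not tested. At 0 counts depth limits a fold to a bound.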

Other observations

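Genes with divided reads were called about as often as others. Of 3020 tested genes with a fractional count in at least 1 of the 6 libraries, 1780 (58.9%) were called, and of 10154 genes with whole counts 5834 (57.5%). Fractional values stood in 8.82% to 9.14% of identifiers in ESC-derived and 7.10% to 7.65% in fetal libraries, and the part of this difference in the calls was not tested.

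The genes higher in ESC-derived cultures were also the more variable ones between adult lines. Their median SD of log2 CPM over the 3 adult libraries was 0.38, against 0.29 for the genes called lower and 0.26 for those not called. In the fetal lines, which took part in the calls, the values for higher and lower genes were 0.32 and 0.28. The genes called higher had lower levels in adult and fetal cultures than those called lower, and the part of level in this spread was not tested.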
